A study of Schmidtea mediterranea with 5 samples.

Results

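The cells described here are the dd_659-high cells, which were chosen by the level of the contig dd_Smed_v6_659_0 (dd_659) in scRNA-seq of *Schmidtea mediterranea* fragments. Barcodes were called cells if they held at least 200 genes and 1000 unique molecular identifiers (UMIs, each counted as 1 captured RNA molecule). A cell was taken as dd_659-high when dd_Smed_v6_659_0 had at least 3 UMIs and at least 0.1% of its UMIs, and the early epidermal contigs dd_Smed_v6_332_0, dd_Smed_v6_61_0 and dd_Smed_v6_69_0 together stayed under 0.15%. This limit on the 3 epidermal contigs is called the epidermal limit below. The rule took 4720 of the 28852 cells, of which 2798 had 2500 genes or fewer and 1922 had more. The gene limit of 2500 matters because the study discarded cells above it, and the 2 strata are therefore given apart.

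The study asked which wound responses precede blastema formation in planarians, and it sampled post-pharyngeal tissue of the CIW4 strain in 5 droplet libraries. There was 1 library each for uninjured tissue (0 hpa, hours post amputation), anterior-facing wounds at 6 hpa and posterior-facing wounds at 18 hpa, and there were 2 for anterior-facing wounds at 18 hpa. The labels give 18 hpa where the study's methods give 16 hpa for the same wounds. Each library pooled fragments of many animals, and replicate 2 of the 18 hpa anterior-facing wounds came from animals fed *unc-22* control dsRNA 4 times, whereas the others were not fed dsRNA. All libraries were sorted on DNA content, and the cells that the study calls X-insensitive were recovered. The study does not say which kinds of cell this gate keeps or leaves out. Dead cells were stained for the sort in 4 libraries, and such a stain is not given for replicate 2 of the 18 hpa anterior-facing wounds. The 6 hpa sort also let in cells of intermediate calcein staining. Libraries served as replicates of the cell sets, since cells of 1 library share their source, and nothing in the labels says that tissue of the 2 anterior-facing 18 hpa libraries was collected on separate days.

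Neoblasts are the dividing cells of the adult planarian and include its pluripotent stem cells. They are the only somatic source of new cells in turnover and regeneration, and their daughters leave the cell cycle as they take on the fate of a tissue. Such post-mitotic progenitors can carry RNA or protein of the neoblast state for a time while the genes of the tissue come on, and a cell in G1 has the DNA content of a differentiated cell.

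The label proposed for these cells, neoblast-like, rested on 2 contigs, and the data bear it only in part. The first, dd_Smed_v6_659_0, was used by the rule. The second, dd_Smed_v6_10988_0, had a UMI in 12.8% to 26.0% of the dd_659-high cells of 2500 genes or fewer in 4 libraries and in 6.08% at 6 hpa. Most of its UMIs lay in 1 of 11 sub-clusters, and 7 of the 11 were marked by contigs of other kinds, among them those fixed for muscle, nephridia and late epidermis. With fewer than 3 markers, no cell type name is given. Human gene names come from best protein matches in a supplementary table of the study, which names 711 of the 28040 contigs in the part read here, and are written as "CDC20-named". Another supplementary table pairs the same contigs with other names, so that each such name is uncertain.

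The libraries held 21746895 to 37981205 UMIs. The 6 hpa library stood apart, with the fewest cells (3086 against 5722 to 7638) and a median of 138 UMIs in its empty droplets against 17 to 22. Pairs of libraries shared 1 to 14 cell barcodes, and 0 to 2 barcodes of dd_659-high cells. In the empty droplets, dd_Smed_v6_659_0 stood at 185 to 609 counts per 1000000 UMIs (CPM), or 0.00344 to 0.0256 UMIs per median droplet, against the 3 UMIs that the rule asked for. Cells with at least 1% of their UMIs in the 3 epidermal contigs had a UMI of dd_Smed_v6_659_0 in 3.82% to 10.1% of cases, at medians of 3309 to 5458 UMIs. Cells high in the muscle contig dd_Smed_v6_2337_0 had one in 35.7% to 60.4% of cases, and 6.53% to 31.0% of them were dd_659-high, so the contig was not at a like low share in every kind of cell.

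The share of cells that were dd_659-high was lowest in uninjured tissue. It was 11.05% at 0 hpa (exact 95% binomial interval 10.3 to 11.9), 19.5% at 6 hpa (18.2 to 21.0) and 18.4% at 18 hpa posterior-facing wounds (17.4 to 19.4). The 2 anterior-facing libraries of 18 hpa stood at 20.9% (19.8 to 21.97) for replicate 1 and at 14.3% (13.6 to 15.1) for replicate 2. The 2 replicates of the same wound thus differed by more than their intervals, which cover counting error only. The median over libraries was 18.4%, and it was 16.4% without the 6 hpa library. When cells with 10% or more mitochondrial UMIs were left out, the shares were 7.2% at 0 hpa, 29.5% at 6 hpa, 19.5% for posterior-facing wounds at 18 hpa, and 26.1% and 23.4% for replicates 1 and 2 of the anterior-facing ones. The share was again lowest at 0 hpa, but the 6 hpa library was now highest. With 1 library per time point and wound side apart from the anterior-facing 18 hpa wounds, no test was made.

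The lower share at 0 hpa was found in both gene strata. Among cells of 2500 genes or fewer, the share was 7.51% at 0 hpa and 18.9% at 6 hpa, and it lay between 11.1% and 12.4% in the 3 libraries of 18 hpa. Among cells of over 2500 genes it was 29.2% at 0 hpa, 79.4% at 6 hpa (62.1 to 91.3, from 34 cells) and 36.9% to 45.2% at 18 hpa. The higher stratum was therefore richer in dd_659-high cells in every library, and dd_659-high cells there held medians of 7377 to 8834 UMIs against 2214 to 4268 in the lower stratum. A floor of 3 UMIs is reached more easily by a deeper cell. From 3000 UMIs upward, however, the limit on the share of UMIs alone asks for at least 3. The lower stratum had 256 dd_659-high and 3104 other cells of that depth at 0 hpa, and 132 and 594 at 6 hpa. At 18 hpa it had 364 and 2444 (anterior-facing replicate 1), 417 and 2875 (posterior-facing) and 475 and 3967 (anterior-facing replicate 2). Every cell over 2500 genes had at least 4598 UMIs, so the shares there are unchanged. The part of depth in the difference between strata was not tested.

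**Figure D1:**
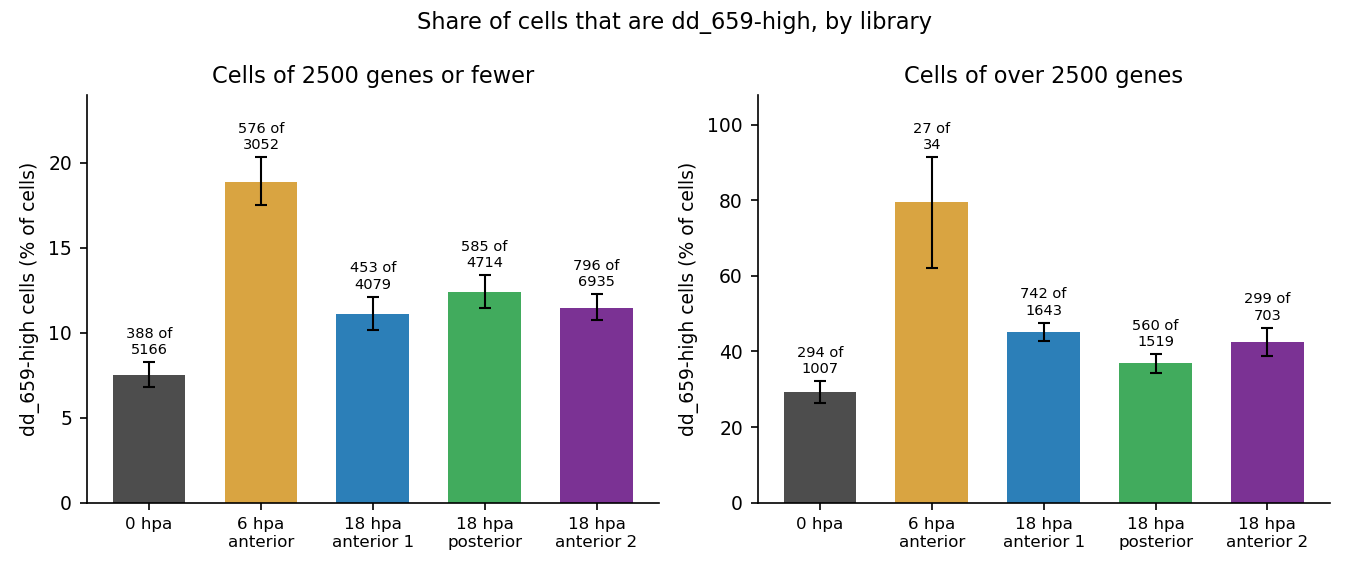
Share of dd_659-high cells (percent of the library's cells in that stratum, y axis) in each of the 5 libraries (x axis), for cells of 2500 genes or fewer (left) and of over 2500 genes (right); error bars are exact 95% binomial intervals. Uninjured tissue has the lowest bar in both panels, at 7.51% and 29.2%, and the 6 hpa bar over 2500 genes rests on 34 cells.

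By choice, the rule fixed the level of dd_Smed_v6_659_0. It took a median of 0.176% to 0.279% of the UMIs of the cells of 2500 genes or fewer and 0.220% to 0.414% of those over 2500 genes, with the highest median at 6 hpa in both strata. Its summed level in the lower stratum was 2262 CPM at 0 hpa, 3167 at 6 hpa and 1899 to 1953 at 18 hpa, while other cells stood at 52.1 to 155 CPM. The limits cut through a continuous range. In the lower stratum, 338 cells lay just inside the share limit (0.1% to under 0.12%) and 291 just outside (0.08% to under 0.1%). The CDC20-named contig stood at 34.6 CPM inside and 30.5 outside, the H1FOO-named contig at 401 and 335, and dd_Smed_v6_10988_0 at 50.7 and 15.3. At the UMI limit, 357 cells had exactly 3 UMIs and 245 others had 2 UMIs at 0.1% or more. Only 32 cells lay just inside the epidermal limit (0.12% to under 0.15%) and 17 just outside (0.15% to under 0.18%). Over 2500 genes, 71 cells lay just inside the share limit and 62 just outside, and dd_Smed_v6_10988_0 stood there at 20.9 CPM inside and 47.2 outside, in the opposite order.

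The comparison with the rest asked which other contigs differ in cells chosen by these 4. UMIs were summed over the dd_659-high cells and over all other cells of each library, and the 2 sums were compared within library by the quasi-likelihood test of edgeR, with Benjamini-Hochberg adjustment of p over all contigs tested and without the 4 contigs of the rule. These p-values concern contigs that the rule did not read, in the same cells that it chose. Among cells of 2500 genes or fewer, 3940 of 12201 contigs were higher (32.3%) and 4177 were lower (34.2%). Without the 6 hpa library, 9171 contigs passed in either direction, against 8117 with it. In the 4 libraries with enough cells over 2500 genes, 4399 of 12850 contigs were higher (34.2%) and 4798 were lower (37.3%). Of the contigs higher in the lower stratum, 3448 were also higher in the other, which is 87.5% of the first list and 78.4% of the second. A list of contigs is read below against these shares, since nearly 1 contig in 3 passed in each direction. Over 2500 genes the sets differed in doublet scores, by which Scrublet marks barcodes that may hold 2 cells. Without the 8% of highest scores, the other cells fell from 713, 901, 959 and 404 to 524, 658, 715 and 208. The dd_659-high cells fell from 294, 742, 560 and 299 to 279, 712, 538 and 282. The order is 0 hpa, 18 hpa anterior-facing replicate 1, posterior-facing and anterior-facing replicate 2.

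The second contig of the label, dd_Smed_v6_10988_0, was far higher in the dd_659-high cells. In cells of 2500 genes or fewer it stood at 299 CPM at 0 hpa, 42.9 at 6 hpa, 153 and 119 in the 18 hpa anterior-facing replicates and 122 at the posterior-facing wound. In other cells it was at 2.01 to 3.89 CPM, so that no library of dd_659-high cells overlapped with them, although the 6 hpa library lay far below the rest. Its log2 fold change was 5.47 ± 0.32 (SE, adjusted p = 1.11e-07), and 4.68 when the other cells were limited to those under the epidermal limit. The contig was given as a marker of these cells with results of the same data known. Its p-value is therefore no independent support for the label. Over 2500 genes it stood at 101, 220, 141 and 125 CPM at 0 hpa and in the 18 hpa anterior-facing replicate 1, posterior-facing and anterior-facing replicate 2 libraries, against 4.46 to 10.4 in other cells. The fold change there was 4.39 on the log2 scale. When every cell was thinned to 1000 UMIs, 3.65% to 17.0% of the lower stratum and 3.70% to 14.2% of the higher stratum had a UMI of it, and the ranges of the strata overlapped.

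Of the contigs without a human name, dd_Smed_v6_11487_0 stood at 147, 120, 92.4, 126 and 119 CPM in the lower stratum (here and below in the order 0 hpa, 6 hpa, 18 hpa anterior-facing replicate 1, 18 hpa posterior-facing, 18 hpa anterior-facing replicate 2), against 3.21 to 6.18 in other cells. Its log2 fold change was 4.56 ± 0.17 (SE, adjusted p = 4.89e-09). The contig dd_Smed_v6_1985_0 was more even, at 573, 579, 470, 544 and 524 CPM against 93.8 to 113, with a log2 fold change of 2.26. The other contigs among the 12 with the lowest p had log2 fold changes between 1.99 (dd_Smed_v6_5663_0) and 3.30 (dd_Smed_v6_9628_0), and each was higher in all 5 libraries. They were also higher than in the other cells under the epidermal limit, by 1.49 (dd_Smed_v6_14413_0) to 2.84 on the log2 scale. Over 2500 genes, the contigs with the largest differences among the 12 with the lowest p were dd_Smed_v6_13504_0 (log2 fold change 4.33) and dd_Smed_v6_15463_0 (4.12). The latter stood at 34.0, 32.7, 22.8, 30.8 and 24.0 CPM in the lower stratum and at 77.8, 157, 80.2, 74.8 and 74.6 CPM in the higher one.

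Contigs named for cell division and DNA repair were mostly higher. Of 15 tested in the lower stratum, 11 were higher and 1 lower (median log2 fold change 0.76, against -0.02 over all contigs), where 32.3% of all contigs were higher. The CDC20-named contig, after the activator of the anaphase-promoting complex, stood at 98.7, 89.9, 61.7, 81.2 and 72.7 CPM in dd_659-high cells and at 5.27 to 9.13 CPM in other cells, with no overlap between libraries. Its log2 fold change was 3.45 ± 0.16 (SE, adjusted p = 1.86e-08). The WDHD1-named contig, after a protein of the replication fork, stood at 28.8, 28.6, 21.8, 18.8 and 16.9 CPM against 1.47 to 7.23 (log2 fold change 2.59). The PARP1-named contig, after the enzyme that marks DNA breaks with poly(ADP-ribose), stood at 66.7, 62.7, 69.01, 67.5 and 65.3 CPM against 14.0 to 18.9 (log2 fold change 1.85). Smaller differences were found for contigs named after RNASEH2A (1.46), which clears RNA from DNA, the repair glycosylase TDG (1.28), TUBG1 of microtubule nucleation (1.11), ANAPC1 of the anaphase-promoting complex (1.01), the helicase BLM (0.76) and the mitotic kinase AURKC (0.49). The exception was the ERCC5-named contig, after an excision repair nuclease, which was lower by a log2 fold change of -0.22. Summed over the list, dd_659-high cells held 601 to 714 CPM and other cells 263 to 431.

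Over 2500 genes the same list had 11 of 15 contigs higher and 4 that did not pass, with a median log2 fold change of 0.85, where 34.2% of all contigs were higher. The CDC20-named contig was at 119, 147, 131 and 130 CPM in the 4 libraries fitted, against 8.86 to 12.7 in other cells (log2 fold change 3.60 ± 0.084, SE, adjusted p = 4.23e-08). The WDHD1-named contig had a log2 fold change of 3.21 and the PARP1-named contig one of 2.04. In both strata the RNF8-named contig, after a ubiquitin ligase of the DNA damage response that was not on the list, was also higher. It stood at 88.3, 52.5, 59.2, 77.8 and 77.0 CPM in the lower stratum against 3.91 to 6.82 in other cells, with log2 fold changes of 3.59 there and 3.37 over 2500 genes. Thus most contigs named for division and repair were higher in cells of both gene strata, all of them sorted in the X-insensitive gate.

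**Figure D2:**
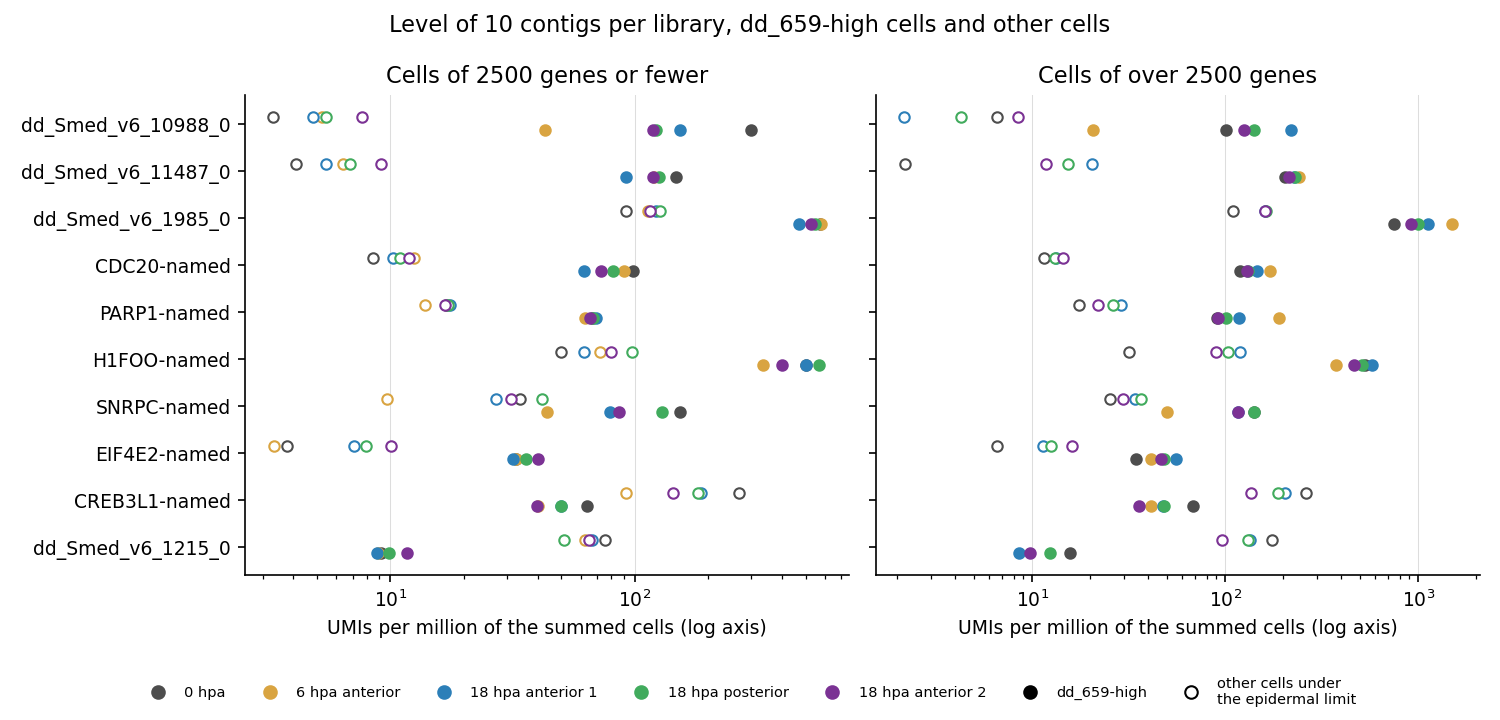
Level (CPM, log scale, x axis) of 10 contigs (y axis) in each library (colours), at 2500 genes or fewer (left) and over 2500 genes (right); filled points are dd_659-high cells and open points the other cells under the epidermal limit. Values at 0 are not drawn, and no open points are given for 6 hpa over 2500 genes. The CDC20-named contig at 2500 genes or fewer sits at 61.7 to 98.7 CPM in dd_659-high cells, above its open points, while dd_Smed_v6_1215_0 sits at 8.82 to 11.7 CPM below its own.

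Chromatin contigs were mostly higher too, with smaller differences. Of 17 tested in the lower stratum, 12 were higher and 5 did not pass (median log2 fold change 0.49), and over 2500 genes 12 were higher and 1 lower (0.57). Summed over the list, dd_659-high cells of the lower stratum held 1044 to 1412 CPM and other cells 469 to 730. Part of the level came from the H1FOO-named contig, after an oocyte linker histone in mammals. It stood at 501, 335, 502, 568 and 401 CPM against 43.7 to 74.7 in other cells of the lower stratum, with a log2 fold change of 2.89 ± 0.14 (SE, adjusted p = 3.59e-08) there and 2.95 over 2500 genes. Beside it, the demethylase contig named after KDM4C (dd_Smed_v6_10489_0) and the EMSY-named contig each had a log2 fold change of 0.83, and the ATRX-named contig, after a chromatin remodeller, had one of 0.77 in the lower stratum and 1.22 in the higher.

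Ribosome assembly was the list with the largest share of higher contigs. Of 20 contigs tested, 18 were higher and 2 did not pass in each stratum, with median log2 fold changes of 0.77 at 2500 genes or fewer and 0.98 above. The contigs named after POP1, a protein of RNase P and RNase MRP, and after NOC4L, a nucleolar factor of the small subunit, had log2 fold changes of 1.21 and 1.08 in the lower stratum, and the smallest among the 18 was that of the NSA2-named contig (0.30). The NOL10-named contig dd_Smed_v6_10617_0, after a nucleolar protein, stood at 18.3, 11.6, 13.0, 13.7 and 10.9 CPM against 4.66 to 8.81 in other cells. Summed over the list, the level was 904 to 1161 CPM in dd_659-high cells and 579 to 785 in other cells of the lower stratum, and 1254 to 1697 against 647 to 790 in the higher. The groups therefore did not overlap in either stratum, although the differences of single contigs were modest.

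Splicing and translation contigs were higher in part. Of 18 splicing and mRNA processing contigs, 10 were higher and 1 lower at 2500 genes or fewer (median log2 fold change 0.47), and 10 higher and 4 lower above (0.53). The SNRPC-named contig, after a protein of the U1 particle, stood at 152, 43.6, 78.9, 130 and 85.8 CPM against 9.13 to 36.6 in other cells of the lower stratum (log2 fold change 1.76). Contigs named after INTS11 of the Integrator complex (1.22) and the splicing factor SF3A1 (0.74) followed. Of 8 translation contigs tested among 9, 5 were higher and 3 did not pass (median 0.96), and above 2500 genes 7 were higher and 1 did not pass (0.77). Summed over the translation list, dd_659-high cells of the lower stratum held 2216 to 3295 CPM and other cells 1938 to 2470. The groups overlapped, although dd_659-high cells were higher within each library. In other cells under the epidermal limit the sum was 1883 to 2673 CPM. The EIF4E2-named contig, after a cap-binding protein, stood at 32.7, 32.7, 31.6, 35.9 and 40.2 CPM against 4.65 to 9.63, with a log2 fold change of 2.22. The 2 contigs named after the initiation factor EIF4G3 had fold changes of 1.10 (dd_Smed_v6_10036_0) and 1.05 (dd_Smed_v6_10618_0) on the log2 scale.

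Transcription factor contigs did not move in 1 direction, and several depended on the comparison cells. Of 15 in the lower stratum, 8 were higher and 4 lower, and of 14 in the higher stratum 7 were higher and 6 lower. The FOXA1-named contig, after a forkhead factor of endoderm in vertebrates, stood at 17.0, 5.45, 10.4, 29.1 and 58.9 CPM against 1.21 to 5.91 in other cells, so that the 6 hpa library overlapped with them (log2 fold change 2.62, and 1.76 against other cells under the epidermal limit). The contigs named after SOX5 (1.13), OSR1 (1.11) and BCL11A (0.70), each after a factor of cell fate, had fold changes of 0.24, 0.40 and -0.03 on the log2 scale against other cells under the epidermal limit (adjusted p = 0.225, 0.107 and 0.898), and the GSC-named contig fell from 1.25 to 0.39. The PAX5-named contig stood at -1.24 on the log2 scale against all other cells, yet it had a value of 0.35 against those under the epidermal limit (adjusted p = 0.16). In contrast, 3 contigs were lower in both comparisons. The CREB3L1-named contig, after a factor of secretory cells, stood at 39.9 to 63.4 CPM against 103 to 250 in other cells (log2 fold change -1.85, and -1.89 under the limit). The FOXJ1-named contig, after the factor that drives motile cilia, stood at 0.681 to 5.56 CPM against 8.61 to 14.3 (-2.14 and -2.29). The OVOL1-named contig, after a zinc finger factor of epithelia, was at -2.10 and -1.50 on the log2 scale, and was lower in 4 of 5 libraries.

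Contigs of differentiated tissues were mostly lower, in a measure set partly by the rule. Because dd_659-high cells had to lie under the epidermal limit, contigs that go with the 3 epidermal contigs had to be lower than in all other cells. For dd_Smed_v6_363_0, the log2 fold change was -6.85 against all other cells and -0.54 against those under the limit, and for dd_Smed_v6_3549_0 it went from -7.03 to -0.43 (adjusted p = 0.070). Other contigs were lower by both comparisons. The contig dd_Smed_v6_247_0 stood at 4.58, 4.09, 3.63, 3.85 and 4.59 CPM against 71.3 to 312 in other cells under the limit (log2 fold change -5.62). The contig dd_Smed_v6_1215_0 stood at 8.82 to 11.7 CPM against 51.1 to 75.8 (-2.77). The late epidermal contig dd_Smed_v6_920_0 stood at 13.1, 15.7, 23.4, 16.7 and 26.5 CPM against 59.8 to 264 under the limit (-3.20). The DYNLL2-named contig, after a dynein light chain, stood at 1.31 to 7.50 CPM against 26.5 to 89.2 (-3.51). In the comparison with other cells under the limit, 33.4% of all contigs were higher and 35.9% lower. Of the 3940 contigs higher in the lower stratum 3447 kept their call there, and of the 4177 lower 3336 did, while 15 and 30 were called in the opposite direction.

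Cilium contigs were mostly lower in the lower stratum. Of 17 tested among 20, 10 were lower and 1 higher (median log2 fold change -1.15), where 34.2% of all contigs were lower. Among them were contigs named after the ciliary kinesin KIF17 (-3.76), the axonemal dynein DNAH10 (-1.95), the BBS-associated GTPase ARL6 (-1.44) and IFT172 of intraflagellar transport (-1.26). Over 2500 genes, 7 of 18 were lower and 3 higher (median -0.47), where 37.3% of all contigs were lower, so that the share was close to that of all contigs there. The summed level was 98.1 to 150 CPM in dd_659-high cells of the lower stratum against 163 to 215 in other cells. In the higher stratum it was 164 to 188 against 167 to 231, and the groups overlapped.

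Neuronal contigs were mostly lower in both strata. Of 15 tested among 18 in the lower stratum, 11 were lower and 2 higher (median log2 fold change -1.57), and over 2500 genes 9 were lower and 3 higher (-2.27). The SHANK3-named contig, after a scaffold of synapses, had a log2 fold change of -2.92, the SLC6A5-named contig, after a glycine transporter, one of -2.81, and the GLRA2-named contig, after a glycine receptor subunit, one of -2.15. Both contigs that were higher, named after the receptors NPY2R (0.52) and GABRB2 (0.42), were not higher than in cells under the epidermal limit: their log2 fold changes were 0.13, which did not pass, and -0.43. The call for the GABRB2-named contig was also lost when any of 4 of the libraries was left out. The SLC10A2-named contig, after a bile acid transporter and on no list, stood at 0, 0, 0.519, 0.427 and 0 CPM against 25.5 to 68.6 in other cells.

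Muscle and matrix contigs were lower in most cases, with an exception among the muscle contigs recalled from other planarian work. Of 6 muscle and matrix contigs tested among 10, 5 were lower and 1 higher. The COL2A1-named contig, after a fibrillar collagen, stood at 6.81 to 16.3 CPM against 26.3 to 139 in other cells (log2 fold change -2.80). The HSPG2-named contig, after a basement membrane proteoglycan, stood at 5.23, 98.1, 131, 36.3 and 82.2 CPM against 40.5 to 285 (-1.30). Among the recalled contigs, dd_Smed_v6_702_0 (-3.75) and dd_Smed_v6_323_0 (-1.71) were lower, but dd_Smed_v6_2337_0 was not. This contig stood at 183, 224, 853, 445 and 421 CPM in dd_659-high cells and at 203, 125, 771, 494 and 244 CPM in other cells, with a log2 fold change of 0.20 (adjusted p = 0.2). The exception depended on the comparison cells, since the value was -0.68 against other cells under the epidermal limit (adjusted p = 0.00305), -1.08 with dd_Smed_v6_659_0 at 0.2% or more and -1.45 over 2500 genes. All 3 recalled intestine contigs and both recalled parenchyma contigs tested were lower, and so were 2 of 3 recalled neuron contigs. The third, dd_Smed_v6_1566_0, was higher (log2 fold change 1.09), as was the recalled nephridia contig dd_Smed_v6_10830_0 (1.36), but neither passed against other cells under the epidermal limit (0.21 and 0.52, adjusted p = 0.313 and 0.0989). Thus markers of other cell types were not at 0 in the dd_659-high cells, and the sum of the 3 muscle contigs reached 254 to 996 CPM in the lower stratum against 12.4 to 123 in the higher.

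**Figure D3:**
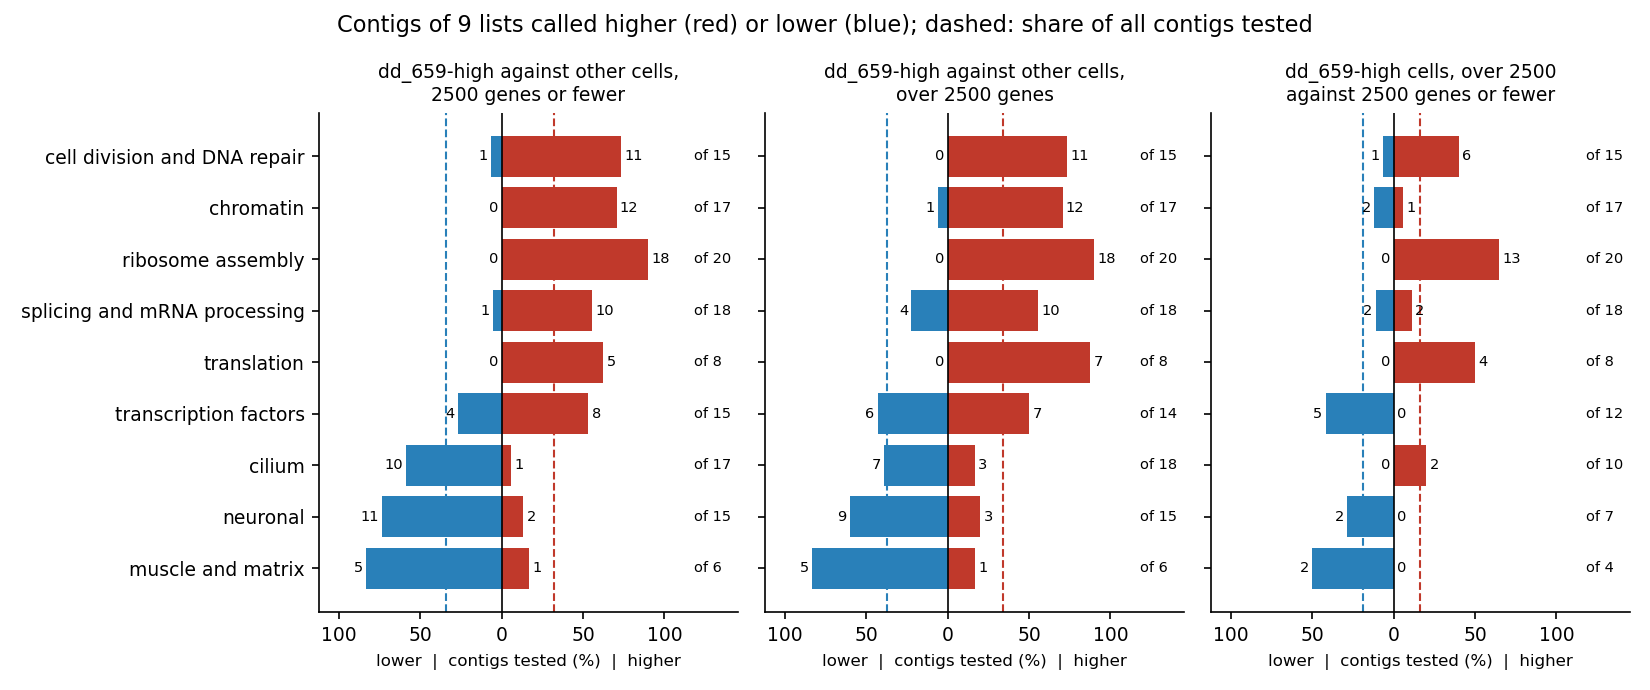
Percent of each list's tested contigs that were higher or lower (x axis), for 9 lists (y axis), in dd_659-high against other cells of 2500 genes or fewer, in the same comparison over 2500 genes, and in dd_659-high cells of over against at most 2500 genes; dashed lines are the percent of all tested contigs called in that direction. Ribosome assembly has 18 of 20 contigs higher in both comparisons with other cells, and the neuronal list 11 of 15 lower in the first.

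Mitochondrial transcripts differed little. Of the 8 mitochondrial contigs, 2 were lower and 6 did not pass at 2500 genes or fewer (median log2 fold change -0.23), and the median over 2500 genes was 0.01. Median mitochondrial shares of dd_659-high cells in the lower stratum were 10.5%, 6.82%, 8.51%, 9.70% and 10.1%, against 9.11%, 13.1%, 9.26%, 9.77% and 11.6% in other cells, so the sets differed most at 6 hpa.

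*equinox* (dd_Smed_v6_20318_0), the gene of a predicted secreted protein that the study followed in wound epidermis, was present in few dd_659-high cells. It had a UMI in 103 of the 2798 cells of 2500 genes or fewer (3.68%) and in 94 of the 1922 others (4.89%). In the lower stratum it stood at 4.58 CPM at 0 hpa (exact Poisson interval 1.84 to 9.43), 6.13 at 6 hpa (2.80 to 11.6), 15.6 and 20.8 in the 18 hpa anterior-facing replicates and 11.1 at the posterior-facing wound (7.26 to 16.3). Other cells under the epidermal limit held 1.76, 6.92, 4.81, 4.04 and 10.3 CPM. Its log2 fold change was 0.56 against all other cells, which did not pass (adjusted p = 0.074), and 1.05 against those under the limit (adjusted p = 0.0084). Over 2500 genes the values had the opposite sign and did not pass, at -0.27 (adjusted p = 0.50) and -0.17 (adjusted p = 0.76). The 3 libraries of 18 hpa were above that of 0 hpa in both sets and in both strata of dd_659-high cells. Empty droplets held 1.196 to 8.08 CPM. *bmp4* (dd_Smed_v6_17402_0), a signal of dorsal muscle, had 19 UMIs in 14 cells of the lower stratum and 8 UMIs in 5 cells of the higher.

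The dd_659-high cells also differed among themselves by gene number. Between cells over and at or under 2500 genes of the same library, 1580 of 9784 contigs were higher (16.1%) and 1821 lower (18.6%). Since gene number set the groups and goes with UMIs, the comparison describes which contigs make up cells of each size. Of the contigs lower over 2500 genes, dd_Smed_v6_5882_0 stood at 8.23, 0, 7.65, 9.10 and 11.5 CPM there and at 96.8, 70.2, 124, 114.5 and 124 CPM at 2500 genes or fewer (log2 fold change -3.80 ± 0.13, SE, adjusted p = 6.10e-11). The contig dd_Smed_v6_12738_0 stood at 3.25 to 4.14 CPM against 27.9 to 56.0 (-3.82). In other cells, dd_Smed_v6_5882_0 was at 88.4 to 98.4 CPM over 2500 genes, close to the dd_659-high cells of the lower stratum and far above those of the higher. The contig with the lowest p among those higher was dd_Smed_v6_3708_0, at 250, 402, 243, 237.9 and 231 CPM against 131, 157, 83.5, 117 and 110 (log2 fold change 1.09, adjusted p = 8.35e-08).

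Ribosome assembly contigs were mostly higher in the cells of more genes, and division and translation contigs in part. Of 15 division and repair contigs, 6 were higher, 1 lower and 8 did not pass, of 20 ribosome assembly contigs 13 were higher and 7 did not pass, and of 8 translation contigs 4 were higher and 4 did not pass, where 16.1% of all contigs were higher. The CDC20-named contig stood at 119, 170, 147, 131 and 130 CPM over 2500 genes and at 61.7 to 98.7 CPM below (log2 fold change 0.71). The NOL10-named contig dd_Smed_v6_10617_0 stood at 18.6 to 33.1 CPM against 10.9 to 18.3 (0.85). Chromatin contigs had 1 higher and 2 lower of 17, and the H1FOO-named contig was at 377 to 578 CPM against 335 to 568. dd_Smed_v6_10988_0 had a log2 fold change of -0.23 (adjusted p = 0.41) with groups that overlapped.

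Some transcription factor and tissue contigs were lower in the cells of more genes. Of 12 transcription factor contigs 5 were lower and 7 did not pass, of 7 neuronal contigs 2 were lower and 5 did not pass, and of 10 cilium contigs 2 were higher and 8 did not pass, where 18.6% of all contigs were lower. Contigs named after SOX5 (-2.47), PAX5 (-2.38), GSC (-1.05) and YY1 (-0.84) were among them. The SKI-named contig, after a repressor of TGF-β signalling, stood at 10.3, 0, 20.9, 14.5 and 12.8 CPM over 2500 genes against 66.7, 42.9, 80.4, 62.8 and 63.2 below (-2.28). Contigs named after the zinc finger factor RREB1 (-3.38), the netrin receptors UNC5B (-2.42) and UNC5D (-1.47), the Notch ligand JAG1 (-2.27) and the receptor ERBB4 (-1.43) were also lower, although these and SKI belong to no list. The muscle contig dd_Smed_v6_2337_0 stood at 43.2, 8.28, 36.5, 37.9 and 26.5 CPM against 183, 224, 853, 445 and 421 (-3.79), and the nephridia contig dd_Smed_v6_10830_0 had a log2 fold change of -3.68. *equinox* (dd_Smed_v6_20318_0) had a log2 fold change of -1.04 (adjusted p = 0.0060), a call lost without replicate 2 of the 18 hpa anterior-facing wounds (-0.98). The count of contigs called fell from 3401 to 1169 when the library block was left out, and to 1537 when cells were thinned to 1000 UMIs.

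Cells that met both limits on dd_Smed_v6_659_0 but lay above the epidermal limit were few. There were 66 at 2500 genes or fewer, with at least 20 in 1 library only, so that no fit was made, and 89 over 2500 genes. In the 3 libraries of 18 hpa, with 27, 21 and 24 such cells over 2500 genes, 653 of 9143 contigs were higher in the dd_659-high cells under the limit (7.14%) and 1161 lower (12.7%). The sets were matched neither in the level of dd_Smed_v6_659_0, which was 2334, 2318 and 2268 CPM under the limit and 1403, 1407 and 1526 above it (in the order of 18 hpa anterior-facing replicate 1, posterior-facing, anterior-facing replicate 2), nor in depth. The cells above the limit were deeper in all 3 libraries, with medians of 15814, 13137 and 10048 UMIs against 8673, 7899 and 7377. The part of either in the differences was not tested. dd_Smed_v6_10988_0 stood at 220, 141 and 125 CPM against 49.5, 70.4 and 56.8, with a log2 fold change of 1.56 (adjusted p = 0.000156). The CDC20-named contig stood at 147, 131 and 130 CPM against 55.9, 80.9 and 44.7 (1.16), and the H1FOO-named contig at 578, 509 and 463 against 256, 303 and 305 (0.84). Both sets thus held these contigs, at lower levels above the limit. When the cells with the highest doublet scores were left out, no library kept 20 cells above the limit. The comparison could therefore not be fitted without them. Without the cells that Scrublet marked, only replicate 1 of the 18 hpa anterior-facing wounds kept 20, and Scrublet marked just 3 cells of that library. Whether droplets with 2 cells gave the levels above the limit was not tested. The largest differences were in contigs tied to the limit, among them dd_Smed_v6_363_0 (-7.10) and the DYNLL2-named contig (-4.97), and *equinox* did not pass (-0.71, adjusted p = 0.40). By list, 3 of 15 division and 2 of 20 ribosome assembly contigs were higher, and 2 of 12 transcription factor contigs were higher and 3 lower. Without replicate 2 of the 18 hpa anterior-facing wounds the count fell from 1814 to 1065, and with cells thinned to 1000 UMIs it fell to 103.

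To describe the cells among themselves, the 4720 cells were clustered, which gave 11 sub-clusters. The 4 contigs of the rule, dd_Smed_v6_10988_0, *equinox* and *bmp4* were left out of the clustering. Leading contigs other than dd_Smed_v6_10988_0 could take part in it, and all are given without a test. Sub-clusters 1 to 4 together had the highest levels of dd_Smed_v6_659_0 (2369 to 2833 CPM) and many cells over 2500 genes (48.4% to 73.2%). Sub-cluster 4 (699 cells, 14.8%) was led by dd_Smed_v6_10988_0, which had a UMI in 66.5% of its cells and stood at 664 CPM, and by dd_Smed_v6_17385_0 (85.1 CPM against 5.10 in the other dd_659-high cells) and the FOXA1-named contig (108 against 11.3). By library, dd_Smed_v6_10988_0 stood there at 820 CPM at 0 hpa, 208 at 6 hpa and 806, 556 and 528 at 18 hpa, so that the low 6 hpa value lay within the sub-cluster too. Sub-cluster 1 (733 cells, 15.5%) was led by dd_Smed_v6_12873_0 (224 CPM against 6.77), sub-cluster 2 (530 cells, 11.2%) by dd_Smed_v6_17393_0 (114.6 against 10.9), and sub-cluster 3 (607 cells, 12.9%) by dd_Smed_v6_15178_0 (99.0 against 27.7). Levels of dd_Smed_v6_10988_0 there were 25.1, 5.65 and 98.7 CPM. Sub-clusters 5, 6 and 9, described next, held it at higher levels than these, at 123, 185 and 123 CPM. In sub-clusters 7, 8, 10 and 11 it stood at 13.5 to 38.5 CPM.

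Sub-clusters 5 to 11 were led by contigs of other kinds, most of them at low levels in the other dd_659-high cells. Sub-cluster 10 (442 cells, 9.36%) had the muscle contig dd_Smed_v6_2337_0 at 2953 CPM against 10.4, with a UMI in 91.6% of its cells, and held *bmp4* (dd_Smed_v6_17402_0) at 13.5 CPM. Sub-cluster 5 (78 cells, 1.65%) was led by dd_Smed_v6_8234_0 (814 against 2.15) and held the nephridia contig dd_Smed_v6_10830_0 at 266 CPM. Sub-cluster 6 (604 cells, 12.8%) was led by dd_Smed_v6_1015_0 (596 against 4.54), with 362 CPM over the recalled neuron contigs and a low median of 2404 UMIs. Sub-cluster 7 (223 cells, 4.73%) was led by the HSPG2-named contig (942 against 1.70), and sub-cluster 11 (113 cells, 2.39%) by dd_Smed_v6_385_0 (3132 against 1.81). Sub-cluster 9 (403 cells, 8.54%) had among its leading contigs dd_Smed_v6_3_0, which was not low elsewhere (1318 CPM in the other dd_659-high cells), with 271 CPM over the recalled intestine contigs and a median mitochondrial share of 12.7%. The recalled intestine contigs also reached 223 CPM in sub-cluster 7, where the recalled muscle contigs stood at 38.5 CPM. Sub-clusters 7, 8 and 11 had 17.9%, 15.6% and 13.3% of their cells among the 8% with the highest doublet scores of their library, and whether sub-clusters 5 to 11 hold 2 cells in 1 droplet was not tested. The level of dd_Smed_v6_659_0 in sub-clusters 7 to 11 was 1664 to 1895 CPM, below that of sub-clusters 1 to 4. The summed level of the division and repair list was 783 to 899 CPM in sub-clusters 1 to 4 and 483 to 667 CPM in sub-clusters 6 to 11. In sub-cluster 5, with its nephridia contig, it was 837 CPM and so within the range of sub-clusters 1 to 4.

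Sub-cluster 8 had the highest level of *equinox*. It had 288 cells (6.10%), was led by dd_Smed_v6_68_0, dd_Smed_v6_263_0 and dd_Smed_v6_899_0, and held the late epidermal contig dd_Smed_v6_920_0 at 242 CPM although its cells were under the epidermal limit. *equinox* (dd_Smed_v6_20318_0) stood at 65.0 CPM there, in 19.4% of the cells, against 15.01 CPM in sub-cluster 3, 13.4 in sub-cluster 6 and under 10 in the others. By library its level in sub-cluster 8 was 30.9 CPM at 0 hpa, 38.4 at 6 hpa, 54.2 and 99.1 in the 18 hpa anterior-facing replicates and 54.9 at the posterior-facing wound, highest in the replicate fed dsRNA. At 0 hpa, 21 of the 37 cells of sub-cluster 8 were among those with the highest doublet scores, against 3 to 12 of 28 to 100 in the other libraries. By number of cells, 56 of those with a UMI lay in sub-cluster 8, 50 in sub-cluster 3 and 30 each in sub-clusters 2 and 4.

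**Figure D4:**
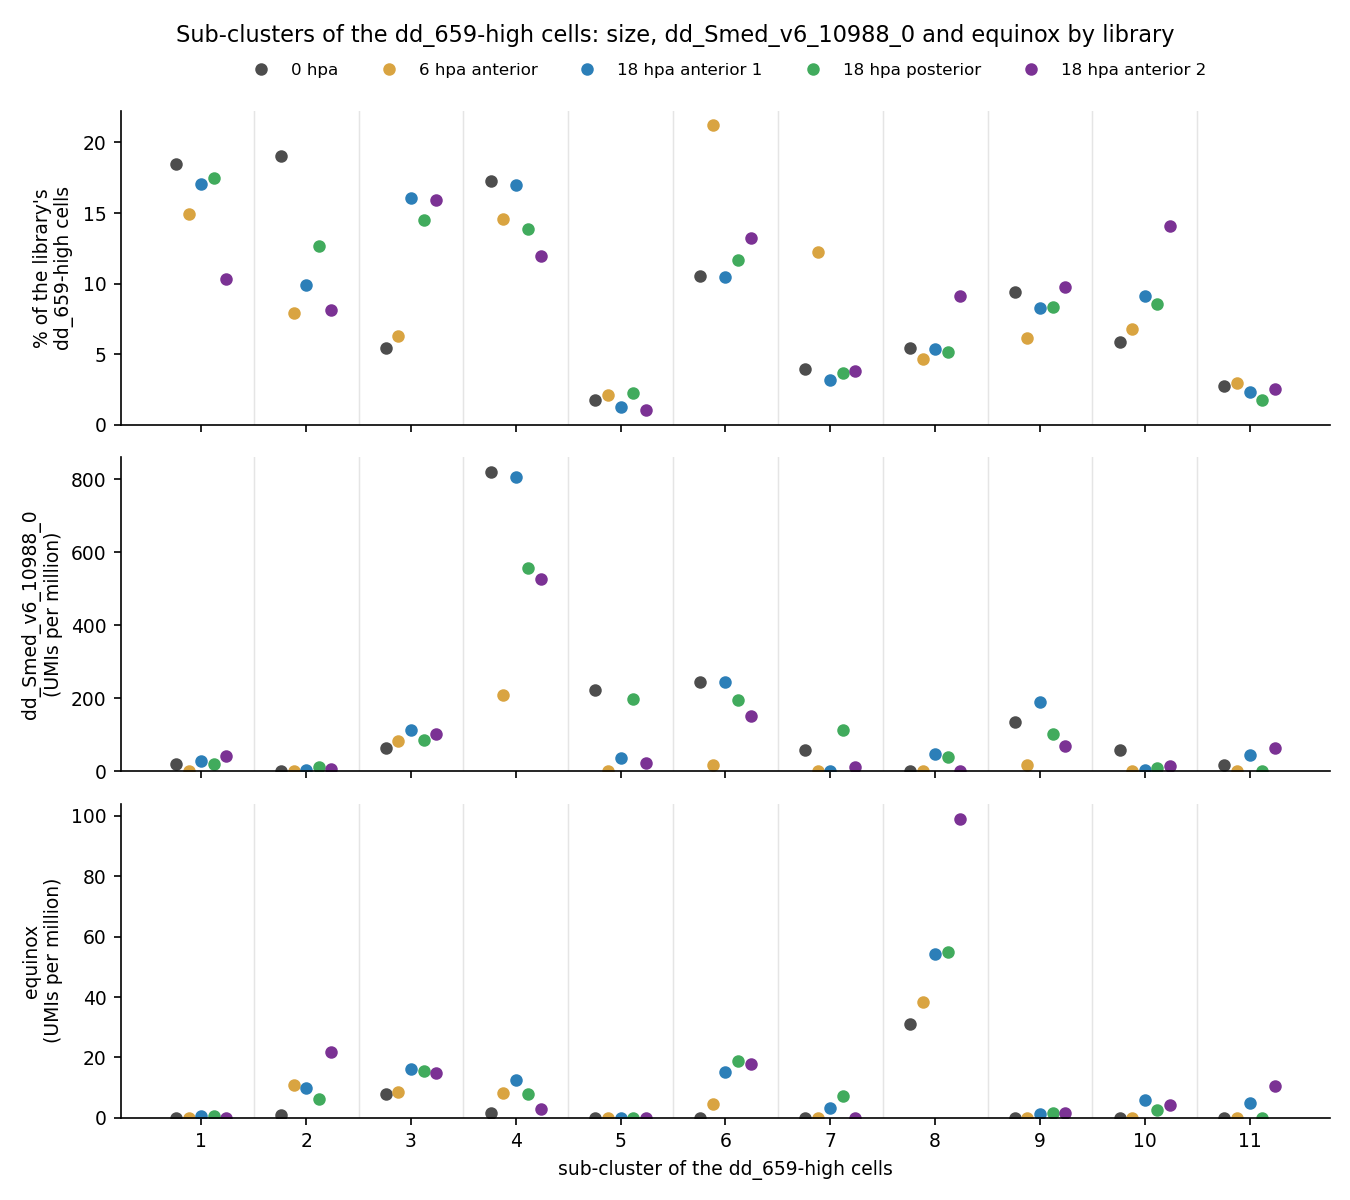
The 11 sub-clusters of dd_659-high cells (x axis) by library (points): percent of the library's dd_659-high cells in each, level of dd_Smed_v6_10988_0 (CPM) and level of *equinox* (CPM). The second contig of the label stands at 208 to 820 CPM in sub-cluster 4, and *equinox* at 30.9 to 99.1 CPM in sub-cluster 8.

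Shares of sub-clusters differed most between 0 hpa or 6 hpa and the others. Sub-cluster 3 held 5.43% of the dd_659-high cells at 0 hpa and 6.30% at 6 hpa, against 16.1%, 14.5% and 15.9% in the libraries of 18 hpa. Sub-cluster 2 held 19.1% at 0 hpa against 7.96% to 12.7% elsewhere. At 6 hpa, sub-cluster 6 held 21.2% of the cells against 10.5% to 13.2% elsewhere, and sub-cluster 7 held 12.3% against 3.18% to 3.96%. The 6 hpa sort let in cells of intermediate calcein staining and its cells had fewer UMIs, so that time and sort cannot be told apart there. The 2 replicates of the 18 hpa anterior-facing wound differed as well. Replicates 1 and 2 had 17.1% and 10.3% of their cells in sub-cluster 1, and 9.12% and 14.1% in sub-cluster 10. Contigs that led a sub-cluster may differ between time points, and the shares were therefore not tested.

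The 0 hpa library was set beside the 18 hpa anterior-facing libraries by values alone, since 0 hpa had 1 library. Of 8554 contigs with at least 50 UMIs in the lower stratum, 252 were at least 2-fold higher in both anterior-facing libraries than at 0 hpa and 160 at least 2-fold lower. Both ratios share the 0 hpa library. The contigs named below were picked for the largest such ratios, and intervals on their 0 hpa values do not allow for that choice. The contig dd_Smed_v6_22585_0 stood at 0, 2.73, 12.5, 12.8 and 18.0 CPM, and its 0 UMIs at 0 hpa gave an upper bound of 2.41 CPM by the exact Poisson interval. Over 2500 genes it was at 1.23, 0, 27.1, 13.4 and 18.6 CPM, and in other cells of the lower stratum at 2.56, 0.69, 7.10, 2.08 and 4.35. Its level was thus high at 18 hpa in both strata, and higher in dd_659-high than in other cells of each 18 hpa library. In the lower stratum, sub-cluster 10 held more of its UMIs than any other. It held 9 of 24, 10 of 30 and 18 of 51 (18 hpa anterior-facing replicate 1, posterior-facing, anterior-facing replicate 2). That sub-cluster had 5.87% of the dd_659-high cells at 0 hpa and 8.56% to 14.1% at 18 hpa. The part of these shares in the difference was not tested. dd_Smed_v6_17385_0, which led sub-cluster 4, stood at 0.65, 4.77, 21.8, 10.3 and 21.2 CPM, and over 2500 genes at 4.94, 0, 30.8, 16.03 and 15.02. dd_Smed_v6_3086_0 stood at 1.96, 36.8, 47.2, 20.9 and 69.2 CPM, but other cells had 10.0, 66.0, 81.4, 40.6 and 122, so this difference was not limited to dd_659-high cells. The ADAMTS20-named contig (dd_Smed_v6_10259_0), after a secreted protease, stood at 0.65, 6.13, 15.1, 10.3 and 15.2 CPM, but other cells had 3.21, 13.8, 22.4, 6.89 and 14.4, and empty droplets 2.87, 4.49, 20.8, 13.2 and 30.02.

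Lower values at 18 hpa rested in part on single cells. For dd_Smed_v6_541_0, 147 of its 148 UMIs at 0 hpa lay in 1 cell, and for dd_Smed_v6_3211_0 45 of 46 did. Other contigs were spread over more cells. dd_Smed_v6_15555_0 stood at 57.5, 14.99, 9.86, 36.3 and 6.35 CPM, from 88 UMIs in 24 cells at 0 hpa, and was higher at the posterior-facing wound than at either anterior-facing one. These UMIs lay in different cells, with 52 of the 88 in sub-cluster 4 at 0 hpa and 74 of 85 in sub-cluster 6 at the posterior-facing wound. Over 2500 genes its values were 10.3, 4.14, 3.83, 10.8 and 4.42 CPM, again highest at 0 hpa and at the posterior-facing wound. Other cells of the lower stratum held it at 19.5, 2.76, 23.9, 17.7 and 9.81 CPM. dd_Smed_v6_6268_0 stood at 24.8, 10.2, 3.63, 8.12 and 4.24 CPM in the lower stratum, from 38 UMIs in 36 cells at 0 hpa, and at 25.5, 24.8, 9.12, 15.6 and 4.86 CPM over 2500 genes. Other cells of the lower stratum held it at 20.6, 7.75, 8.66, 14.7 and 8.83 CPM. They too were highest at 0 hpa, so this difference was not limited to dd_659-high cells.

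**Figure D5:**
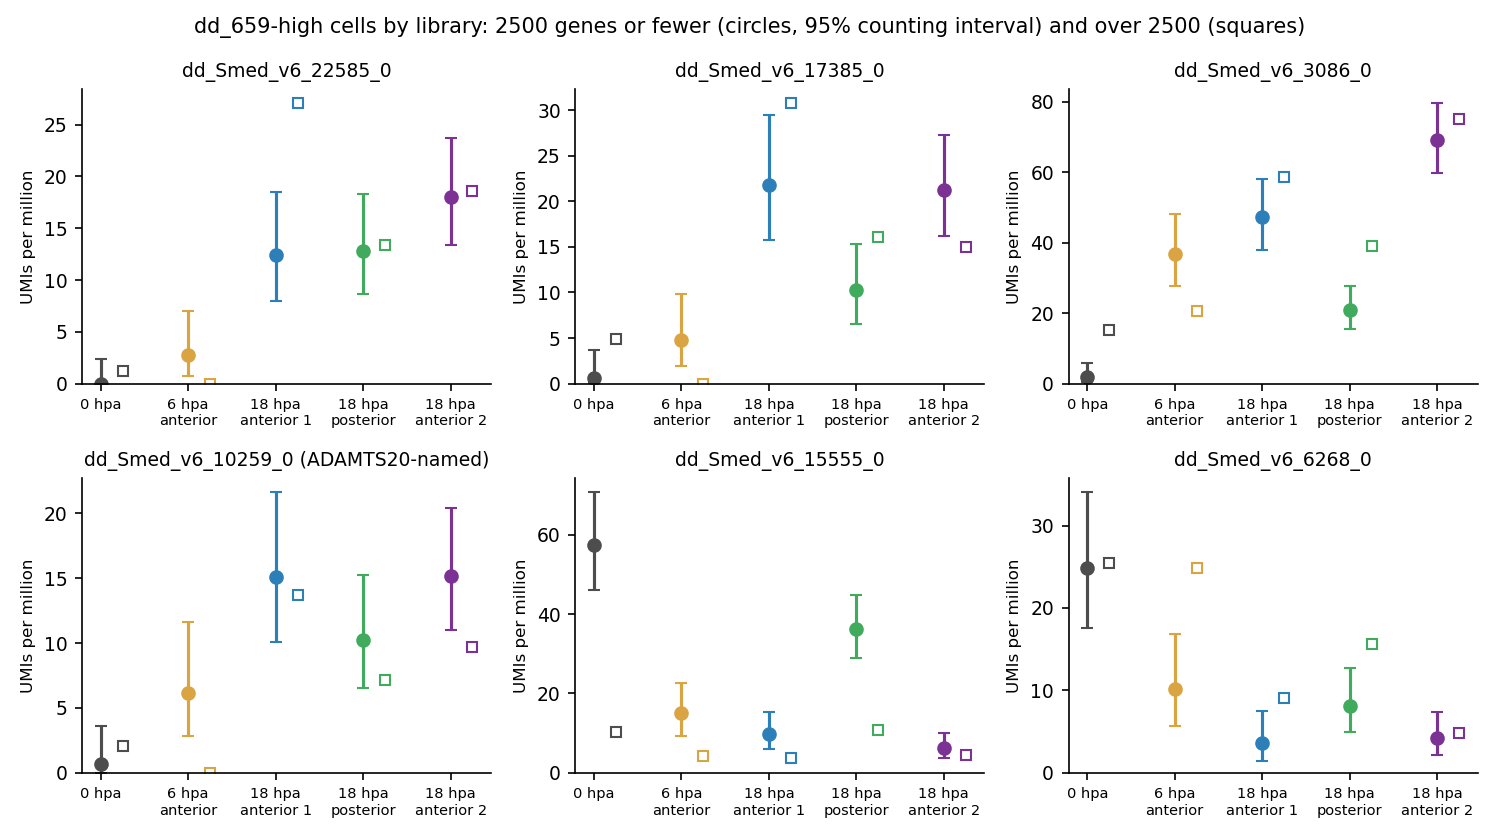
Levels (CPM, y axis) of 6 contigs of the dd_659-high cells in the 5 libraries (x axis); circles are cells of 2500 genes or fewer with exact 95% Poisson intervals and squares are cells over 2500 genes. dd_Smed_v6_22585_0 goes from 0 at 0 hpa to 12.5 to 18.0 CPM at 18 hpa, and dd_Smed_v6_6268_0 from 24.8 to 3.63 to 8.12 CPM.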

How the data were processed

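The authors mapped reads of a HiSeq 2500 with Cell Ranger (version 4 in the matrix headers) to Smed_v6 transcripts collapsed by their location on the Smes_g4 genome, and their processing notes also name CASAVA 1.9. The deposited values are raw counts of UMIs per contig and barcode for 28040 contigs, with no filter on cells. The study left out cells with over 2500 genes, which are kept here. Members and lists were chosen with earlier results of these data known.

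Counts were summed per library and cell set. Sets of at least 20 cells were compared with edgeR 4.0.16 in R 4.3.3 (TMM, filterByExpr, quasi-likelihood test), with library as a block because both sets come from the same library, and with Benjamini-Hochberg adjustment at 0.05 over all contigs. The 4 contigs of the rule were left out. In simulated counts of the comparison with other cells, 94.0% of contigs changed 2-fold were recovered at 2500 genes or fewer, 89.6% above, and 48.5% in that with cells above the epidermal limit. Of contigs changed 1.5-fold, 40.9%, 40.3% and 9.23% were recovered. The simulation gave every contig the same fixed dispersion, not one estimated from the data, so recovery in the data may differ. CPM is a count per 1000000 UMIs of a set. Sub-clusters came from Leiden clustering in scanpy 1.11.5 (Python 3.11.15, 2000 variable contigs, 10 components, 15 neighbours, resolution 0.5). Contigs are named by lowest p (12 higher and 12 lower, 6 and 6 between strata and over time) or largest fold among human-named ones, when of the same sign in every library and at 10 CPM or more, or from the lists. Sub-clusters are named by leading folds, with 10 CPM added. Several names belong to more than 1 contig, between which reads may be split. Scrublet marked 2 and 3 cells in 2 libraries and so had not worked there. No cells were removed as doublets, and leaving out the 8% with the highest scores was tried. Other alternatives were DESeq2 1.42.0, no filter, other limits of the rule, thinning to 1000 UMIs, no block and leaving out each library. Intervals cover counting error only.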

Additional observations from a re-analysis of the deposited data

How the results depend on the processing

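For dd_659-high against other cells of 2500 genes or fewer, 8117 contigs passed and the alternatives gave 5711 to 10295 (7259 to 9171 with each library left out). Without a filter on low counts, 34.7% of its calls were higher against 48.5%. Over 2500 genes, 9197 passed (7873 to 9366 with each library left out), and 4513 after thinning to 1000 UMIs. Between gene strata, 3401 passed (2403 to 3723 with each library left out), against 1169 without the replicate block, with 34.6% of them higher in place of 46.5%. With cells of at least 3000 UMIs 1942 passed, after thinning 1537, and with dd_Smed_v6_659_0 at 0.2% or more 1441. The comparison with cells above the epidermal limit was chosen after seeing the data, since that at 2500 genes or fewer could not be fitted. There 1814 passed and 36.0% were higher, against 930 and 21.7% by DESeq2, 103 and 9.71% after thinning, 57.5% higher without a filter, and 1065 to 1715 with each library left out. The block changed no other count by over 1.5 times. The median share of 18.4% moved to 9.45% with dd_Smed_v6_659_0 at 0.2% or more and 23.4% under 10% mitochondrial UMIs (16.4% to 18.9% with each library left out), and dd_Smed_v6_10988_0 kept a log2 fold change of 4.52 to 6.91 (4.99 to 5.67 with each library left out). Against other cells under the epidermal limit, log2 fold changes turned to -0.0264 for the BCL11A-named (dd_Smed_v6_10320_0), 0.35 for the PAX5-named (dd_Smed_v6_10219_0), -0.43 for the GABRB2-named (dd_Smed_v6_10171_0) contig and -0.68 for dd_Smed_v6_2337_0, which was at -1.08 with dd_Smed_v6_659_0 at 0.2% or more. Between strata dd_Smed_v6_10988_0 turned to 0.19 without 0 hpa (-0.473 to 0.193 with each library left out), and *equinox* against cells above the limit to 0.15 without 18 hpa anterior-facing replicate 1 (-1.16 to 0.15). The causes were not tested. Of the other values of named contigs under alternatives, 2718 kept direction and call, 60 lost the call and 5 gained it. Counts near the 3-UMI limit, sums of 27 cells at 6 hpa over 2500 genes, and contigs under 10 CPM were limited by depth.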
